A study of Homo sapiens with 18 samples.

Results

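The zinc-finger (ZNF) genes of human chromosome 19 were followed through blood formation from H1, an established human embryonic stem cell (hESC) line, with and without a mutation of USB1. Members were all protein-coding genes of chromosome 19 (GRCh38) whose symbol begins with ZNF and whose counts summed to at least 10 over the 18 RNA-seq libraries. This rule, which used no difference between groups, took 242 of the 249 annotated genes of that kind, among 35168 genes in the tables, with 80 members on the short arm (19p) and 162 on the long arm (19q). The 7 genes left out were ZNF560, ZNF729, ZNF98, ZNF723, ZNF728, ZNF536 and ZNF534. The USB1 mutant cells carried c.531delA, a frameshift deletion introduced by CRISPR editing, and they were compared with WT H1 cells. How many edited clones the mutant libraries came from was not stated, so the mutation and the history of a clone cannot be told apart. Each genotype had 3 libraries on each of 3 days of the differentiation. D0 was the undifferentiated hESCs, D16 the CD34+/CD45+ hematopoietic progenitors and D30 the mature blood cells. Whether the 3 libraries of a group came from separate cultures was not stated, and p-values then measure only the spread between these libraries.

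USB1 is an exonuclease that trims the 3′ ends of U6 snRNA and of some other small RNAs, and its mutations cause poikiloderma with neutropenia. The chromosome 19 zinc-finger genes arose by repeated tandem duplication and stand in clusters. Their proteins bind DNA through arrays of C2H2 fingers, and most begin with a KRAB domain, which recruits the scaffold TRIM28 (KAP1) and through it the H3K9 methyltransferase SETDB1. Many of them silence transposable elements, and many are expressed in early embryonic cells.

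By a gap of at least 1 Mb between neighbours, the members fell into groups along the chromosome. The largest on 19p was the cluster next to the centromere, 33 genes from ZNF101 to ZNF254 at 19.7 to 24.1 Mb, followed by 26 genes from ZNF653 to ZNF791 at 11.5 to 12.6 Mb and 15 from ZNF557 to ZNF846 at 7.1 to 9.8 Mb. The larger 19q groups held 26 genes at 36.2 to 37.8 Mb (ZNF565 to ZNF573), 24 at 43.5 to 45.1 Mb (ZNF575 to ZNF296), 39 at 51.6 to 53.6 Mb (ZNF175 to ZNF331) and 59 at 55.5 to 58.5 Mb (ZNF628 to ZNF446). A pattern search of the annotated proteins found a KRAB-like sequence in 200 members and none in 42, and the pericentromeric genes had a median of 13 finger matches. Tandem duplicates share sequence: 112 members shared at least 10% of their 31-base words with another gene, and the median was 19.88% in the pericentromeric cluster and 23.37% at 11.5 to 12.6 Mb. The split of reads between such relatives is uncertain. An annotated gene on the opposite strand overlapped 85 members and one on the same strand 76, and whether the counting used strand was not stated.

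Library totals ran between 4125102 (USB1 mutant D30, replicate 3) and 19368903 counts. The members took 0.281 to 0.304% of the counts in mutant and 0.265 to 0.300% in WT libraries for 19p at D0, and 0.395 to 0.416% and 0.389 to 0.423% for 19q. USB1 itself was measured at 77.7 to 85.8 TPM in mutant and 70.9 to 99.7 TPM in WT hESCs, and since a frameshift need not lower an mRNA, this level does not check the genotype labels. TPM is transcript abundance scaled to gene length and library size. At D16 PTPRC and CD34 were higher than at D0 in both genotypes. The cell types differed between genotypes within a day. The summed level of 12 eosinophil, mast cell and basophil markers was 10426 to 15640 TPM in mutant and 42856 to 80147 TPM in WT libraries at D16, and that of 14 erythroid markers was 191440 to 273770 TPM in mutant and 53721 to 68221 TPM in WT libraries at D30. In such bulk samples fewer cells of a type and less RNA per cell cannot be told apart.

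The family as a whole was most abundant in hESCs. The summed level of the 242 members was 3723 ± 243 TPM at D0, 2447 ± 100 TPM at D16 and 2053 ± 212 TPM at D30 in the USB1 mutant, and 3934 ± 151, 2153 ± 165 and 2223 ± 181 TPM in WT (SD, n = 3 libraries each, as throughout). By mean TPM over the 6 libraries of a day, 152 members peaked at D0, 38 at D16 and 52 at D30. In the pericentromeric cluster 25 of 33 peaked at D0, and at 51.6 to 53.6 Mb 29 of 39, whereas at 43.5 to 45.1 Mb 9 peaked at D0 and 10 at D30. The median member was at 9.27 TPM in mutant and 8.99 TPM in WT hESCs, and 109 and 112 members reached 10 TPM. At D30 the medians were 5.90 TPM in mutant and 6.03 TPM in WT cells.

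The arms diverged at D16. On 19p the summed level was 887 ± 56.9 TPM in mutant against 683 ± 60.9 TPM in WT progenitors, and the groups did not overlap (822 to 928 against 615 to 732 TPM). On 19q it was 1560 ± 50.7 TPM in mutant against 1471 ± 104 TPM in WT progenitors, with overlapping ranges of 1523 to 1618 and 1354 to 1555 TPM. Mutant levels were thus 130% of WT for 19p and 106% for 19q. The pericentromeric cluster, the largest part of the 19p sum, was at 531 ± 47.6 TPM in mutant against 391 ± 43.6 TPM in WT progenitors, or 136% of WT. The rise was not particular to it. Mutant levels were 121% of WT at 7.1 to 9.8 Mb, 125% at 11.5 to 12.6 Mb and 125% for the 5 genes at 2.8 to 2.9 Mb. Expressed as a share of the D0 level, the pericentromeric cluster stood at 58.7% at D16 and 36.2% at D30 in the mutant, and at 40.8% and 39.7% in WT. The WT cluster thus had a similar summed TPM at D16 and D30, but on the TMM scale introduced below its sum was 812 ± 64.7 CPM at D16 and 622 ± 42.1 CPM at D30, against 1047 ± 88.6 and 680.2 ± 31.1 CPM in the mutant. The 24 genes at 43.5 to 45.1 Mb kept 107% and 101% of their D0 level in the mutant and 94.7% and 117% in WT.

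At D0 and D30 the direction of the summed level depended on the scaling. The 19p sum at D30 was 633 ± 78.0 TPM in mutant against 692 ± 55.9 TPM in WT cells. On CPM, counts scaled to library size with the trimmed mean of M-values (TMM), the same sum was 1356 ± 102 in mutant against 1229 ± 56.9 in WT cells. On 19q it was 1419 ± 144 against 1531 ± 125 TPM, and 2504 ± 210 against 2263 ± 74.2 CPM. At D30 this gap between the scales stood beside the higher erythroid level of the mutant libraries given above, whose part in it was not tested. Levels of single genes are given below in CPM on the TMM scale unless TPM is written.

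**Figure D1:**
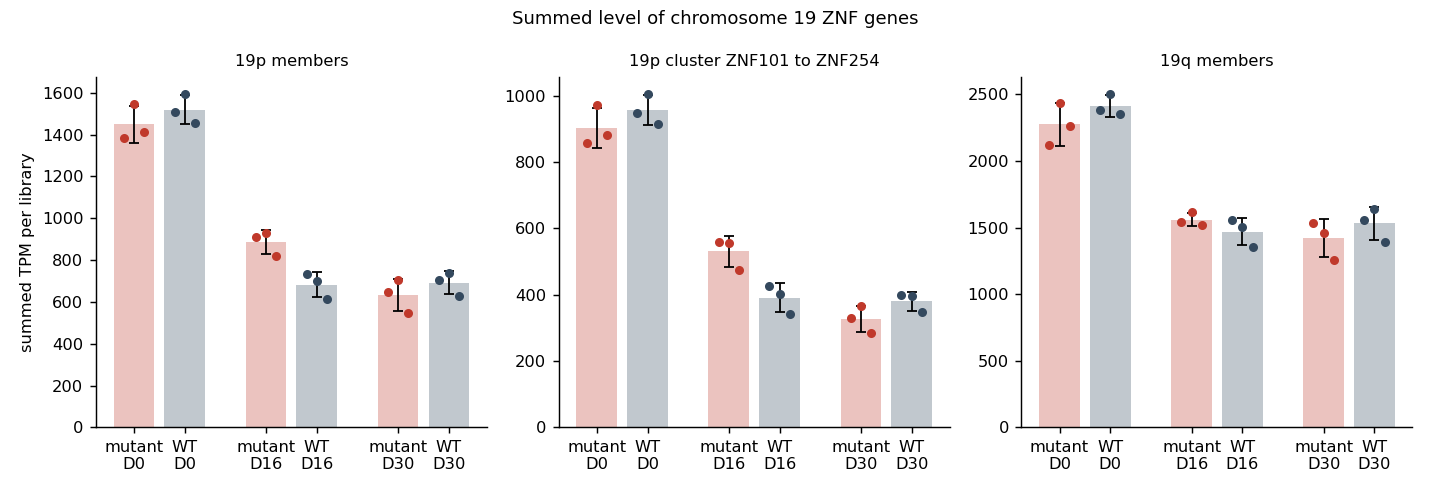
Summed TPM (y axis, linear, from 0) of the 19p members, of the 33 pericentromeric 19p genes ZNF101 to ZNF254 and of the 19q members at D0, D16 and D30. Bars are means with SD over 3 libraries, points are libraries, and the USB1 mutant stands left of WT; for 19p at D16 the mutant libraries lie at 822 to 928 TPM and the WT libraries at 615 to 732 TPM.

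The most abundant members changed with the day. At D0 ZNF121, ZNF146, ZNF66, ZNF724 and ZNF714 led, at D16 ZNF146, ZNF66, ZNF787, ZNF875 and ZNF91, and at D30 ZNF66, ZNF787, ZNF580, ZNF875 and ZNF431. ZNF121 was at 134, 143 and 127 TPM in mutant and 153, 151 and 125 TPM in WT hESCs. At D30 it was at 8.91, 19.1 and 10.3 TPM in mutant and 17.4, 17.8 and 11.1 TPM in WT cells. ZNF146, which consists of fingers without a KRAB domain, was at 121, 130 and 122 TPM in mutant and 147, 146 and 128 TPM in WT hESCs, although ZNF565 overlaps it on the opposite strand. ZNF66 of the pericentromeric cluster stayed abundant, at 61.7, 53.2 and 53.0 TPM in mutant and 73.9, 72.1 and 54.7 TPM in WT cells at D30. ZNF580 took the opposite course. Its D0 levels were 7.71, 10.9 and 9.80 TPM in mutant and 8.55, 8.72 and 11 TPM in WT, and its D30 levels 75.4, 43.0 and 55.1 TPM in mutant and 49.3, 59.1 and 41.6 TPM in WT, but it overlaps ZNF581 on the same strand.

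Changes between days were tested with edgeR in one fit over the 18 libraries. A gene was called when it differed by over 2-fold with a Benjamini-Hochberg adjusted p (padj) under 0.1, and values are log2 fold changes ± SE of the fit. In WT 18 of the 234 members tested were higher and 51 lower at D16 than at D0, or 7.69% and 21.8%, against 24.2% and 26.5% of the 16829 genes tested. The medians were -0.41 on 19p and -0.25 on 19q. In the mutant 19 were higher and 36 lower, against a background of 22.9% and 23.6%, with medians of -0.11 on 19p and -0.25 on 19q. In both genotypes the share of members called higher was below the background, and the share called lower did not exceed it.

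Between D16 and D30 more members were called lower than higher in both genotypes, although the summed TPM of WT was 2153 at D16 and 2223 at D30. In WT 10 members were higher and 54 lower at D30, or 4.27% and 23.1%, against 19% and 19% of all genes tested. In the mutant 15 were higher and 57 lower, or 6.41% and 24.4%, against 21.8% and 20.1%. By domain, among 197 members with a KRAB-like pattern 6 were higher and 52 lower in WT, with a median of -0.45, and among 37 without it 4 were higher and 2 lower, with a median of 0.02. In the mutant the counts were 7 and 52 of 197 with the pattern, and 8 and 5 of 37 without it. The other protein-coding genes of chromosome 19 had a median of 0.29 in WT, with 232 higher and 152 lower of 932.

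The medians differed by cluster. In WT the pericentromeric genes had a median log2 fold change of -0.87 at D16 against D0, with 0 higher and 13 lower of 29 tested and 1 value above 0. In the mutant their median was -0.35, with 1 higher and 8 lower. At D30 against D16 the medians were -1.0 in the mutant, with 2 higher and 15 lower, and -0.70 in WT, with 2 higher and 11 lower. The 38 tested genes at 51.6 to 53.6 Mb had medians of -0.73 in the mutant and -0.74 in WT between D16 and D30. The 5 genes at 34.7 to 35 Mb (ZNF302 to ZNF792) had -0.98 in the mutant and -1.14 in WT. At 43.5 to 45.1 Mb the WT median at D16 against D0 was 0.28, with 3 higher and 1 lower of 23. Of all genes tested, 24.2% were higher and 26.5% lower in that interval in WT, and 22.9% and 23.6% in the mutant. For D30 against D16 the shares were 19% and 19% in WT and 21.8% and 20.1% in the mutant. The 8 of 29 pericentromeric genes lower in the mutant at D16 were thus near the share of all genes. Counts in clusters of so few genes give only rough shares.

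**Figure D2:**
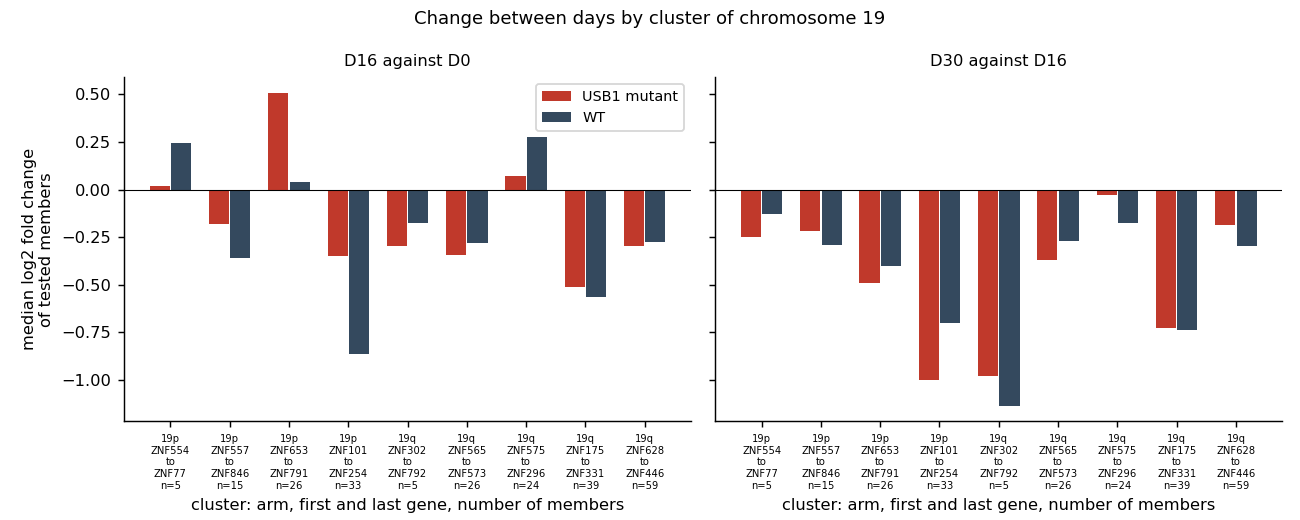
Median log2 fold change (y axis) of the tested members of each cluster with at least 5 members, at D16 against D0 and at D30 against D16, for the USB1 mutant and WT. The pericentromeric 19p cluster is at -0.35 in the mutant and -0.87 in WT in the first interval, and at -1.0 and -0.70 in the second.

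Single members moved much further than these medians. ZNF175 (chr19:51571283-51592510, + strand), a KRAB gene also known as OTK18, was at 65.8, 80.1 and 44.6 CPM in WT progenitors against 14.5, 16.7 and 13.8 CPM in WT hESCs. No value overlapped, and the log2 fold change was 1.94 in the mutant and 2.08 ± 0.20 in WT. ZNF524 and ZNF792 also rose in both genotypes at D16, by 1.93 and 1.89 in the mutant and 2.07 and 1.71 in WT. ZNF114 (19q, 48270081-48287608, + strand) fell in WT, to 1.56, 1.82 and 3.39 CPM at D16 against 18.9, 20.2 and 21.4 CPM at D0, a change of -3.13 ± 0.29. Its unscaled counts were also lower in the mutant, at 60, 75 and 67 at D16 against 199, 230 and 268 at D0. ZNF578, ZNF135 and ZNF625 fell in both genotypes, with changes of -3.11, -2.72 and -2.43 in the mutant and -2.95, -2.43 and -2.35 in WT. ZNF625 shares 79.9% of its 31-base words with other genes, so its reads are uncertain.

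The later interval was led by ZNF580 and ZNF730. ZNF580 rose at D30 to 57.0, 29.5 and 47.7 CPM against 8.45, 10.7 and 9.76 CPM at D16 in the mutant, and to 30.7, 37.8 and 27.8 CPM against 12.1, 12.8 and 10.8 CPM in WT. The changes were 2.21 ± 0.22 in the mutant and 1.43 ± 0.21 in WT. ZNF730, in the pericentromeric cluster, fell to 0.405, 0.417 and 0.267 CPM at D30 against 16.0, 14.9 and 11.7 CPM at D16 in the mutant, and to 1.25, 0.569 and 0.319 CPM against 8.06, 13.6 and 12.5 CPM in WT. These were changes of -5.16 ± 0.37 in the mutant and -4.09 ± 0.32 in WT. ZNF626 and ZNF43 of the same cluster also fell in both genotypes, with changes of -2.59 and -2.17 in the mutant and -2.87 and -2.19 in WT. ZNF93, which represses L1 retrotransposons, fell in WT, with a change of -2.35. Its unscaled counts were also lower in the mutant, at 40, 75 and 37 at D30 against 310, 356 and 268 at D16. ZNF91, which represses SVA retrotransposons, was at 31.1, 41.8 and 36.5 CPM at D30 against 94.5, 88.5 and 70.3 CPM at D16 in the mutant (-1.21 ± 0.15). In WT it was at 41.7, 42.7 and 42.1 CPM at D30 against 93.1, 106 and 75.1 CPM at D16 (-1.12 ± 0.15). Without the libraries of replicate 2 of both genotypes the WT change was under 2-fold, so the call was lost. The padj was at most 0.00199 in every left-out fit.

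The genotypes were compared day by day with edgeR on the 6 libraries of that day, and a call was a padj under 0.1 over all genes tested. In hESCs 10 members were higher and 2 lower in the USB1 mutant of 231 tested, or 4.33% and 0.866%, against 1.07% and 1.87% of 14719 genes. On 19p 4 were higher and 1 lower of 73, with a median of 0.02, and on 19q 6 and 1 of 158, with a median of -0.01. With the replicate number as a block, 20 were higher and 5 lower. Without mutant replicate 3 the calls came to 6, and with the deposited effective transcript lengths as offsets also to 6, all higher.

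ZNF229 (chr19:44417519-44448578, - strand), a KRAB gene with 16 finger matches, was the clearest of them and was also higher on the later days. It was at 23.5, 19.3 and 21.6 CPM in mutant against 7.96, 8.04 and 8.24 CPM in WT hESCs, a log2 fold change of 1.41 ± 0.13 (padj = 0.00164). ZNF667 was at 4.79, 5.16 and 6.01 CPM in mutant against 1.16, 0.861 and 1.24 CPM in WT (2.31 ± 0.26, padj = 0.0043). In both genes every mutant value lay above every WT value. ZNF835, whose protein had no KRAB-like pattern, was at 2.40, 1.79 and 2.03 CPM in mutant against 0.0829, 0.144 and 0.113 CPM in WT. That was 68 counts in mutant and 4 in WT libraries, a ratio of 17.6 with an exact 95% interval of 6.57 to 66.5 for counting error only (padj = 0.00392). Its neighbours in the order of padj were ZNF681, ZNF850 and ZNF649, which gained less but from more reads.

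ZNF681 of the pericentromeric cluster was at 28.9, 33 and 32.3 CPM in mutant against 15.3, 16.1 and 12 CPM in WT hESCs (1.11 ± 0.13, padj = 0.00607). ZNF850, which ZNF567 overlaps on the opposite strand, was at 92.7, 91.6 and 85.8 CPM in mutant against 57.8, 54.2 and 52.7 CPM in WT (0.71 ± 0.09, padj = 0.00636), and ZNF649 differed by 0.65 ± 0.09 (padj = 0.0104). These 6 genes were called in each of the 6 fits that left out a library, although ZNF229 was not called with transcript lengths as offsets (padj = 0.248). ZNF562 (0.52), ZNF581 (0.47), ZNF57 (0.61) and ZNF486 (0.39) were higher too but were each lost in at least 1 of those fits. Of the lower members, ZNF611 was at 17.8, 19.5 and 16.5 CPM in mutant against 29.9, 28.6 and 28.6 CPM in WT (-0.70 ± 0.11, padj = 0.0157; 0.1045 without mutant replicate 3 and 0.212 with lengths as offsets). The other, ZNF559-ZNF177, is a readthrough gene that shares 93.0% of its 31-base words with other genes.

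In D16 progenitors 29 members were higher and 8 lower in the mutant of 230 tested, or 12.6% and 3.48%, against 13.1% and 15.3% of 14528 genes. The share of higher calls was thus near the background and that of lower calls below it. The arms differed in balance. On 19p 18 were higher and 1 lower of 73, with a median of 0.19 and 58 values above 0, and on 19q 11 were higher and 7 lower of 157, with a median of -0.01 and 77 values above 0. By mutant library the 19p median lay between 0.10 and 0.30 and the 19q median between -0.16 and 0.11, so the ranges of the arms over libraries overlapped slightly. The 19p median was 0.15 without WT replicate 3 and 0.32 without WT replicate 2. The ZNF genes of other chromosomes had 25 higher and 27 lower of 242, with a median of 0.01.

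The number of D16 calls depended on single libraries. It was 21 without WT replicate 1, 22 without WT replicate 2, 45 without WT replicate 3, 23 without mutant replicate 1, 21 without mutant replicate 2 and 28 without mutant replicate 3, against 37 with all. In each of the 6 fits that left out a library, 15 of the 23 members named for this day were called.

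**Figure D3:**
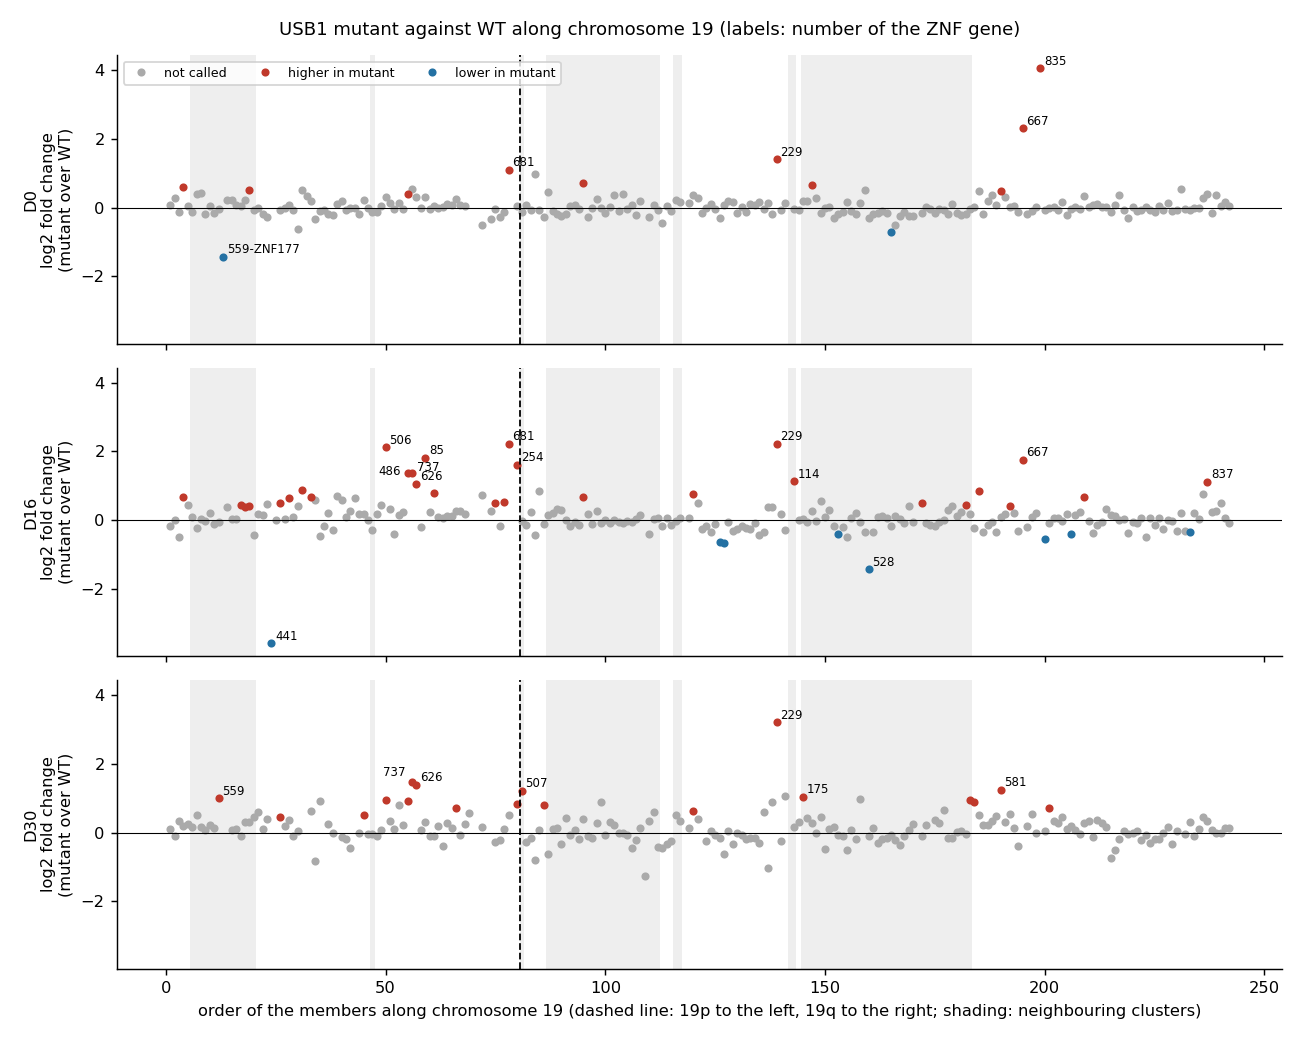
Log2 fold change of the USB1 mutant against WT (y axis) for every tested member in chromosomal order (x axis) at D0, D16 and D30. Red points were called higher and blue points lower at padj under 0.1, grey points were not called, and the dashed line separates 19p from 19q. At D16 the called 19p genes are 18 higher and 1 lower, and the called 19q genes 11 higher and 7 lower.

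The pericentromeric cluster held 10 of the 18 higher calls on 19p at D16 and no lower one, among 28 tested genes with a median of 0.27 and 25 values above 0. ZNF506, ZNF681, ZNF254, ZNF85, ZNF737, ZNF486, ZNF714, ZNF626, ZNF724 and ZNF675 were the 10. Across the alternatives, the leave-one-out fits included, 8 to 10 genes of this cluster were higher and 0 or 1 lower. Its neighbour at 11.5 to 12.6 Mb had 4 higher and 1 lower of 25 (median 0.19), and that at 7.1 to 9.8 Mb 3 higher and 0 lower of 14. On 19q the 24 genes at 43.5 to 45.1 Mb leaned the other way by their median of -0.17, with 2 higher and 2 lower of 23 tested. By shared sequence, 11 members were higher and 5 lower of 126 that shared under 10% of their 31-base words, and 18 and 3 of 104 that shared more.

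ZNF506 (chr19:19785839-19821751, - strand) was at 32.8, 32.4 and 24.2 CPM in mutant against 4.79, 8.99 and 6.32 CPM in WT progenitors (2.12 ± 0.23, padj = 0.000305). ZNF681 (chr19:23739195-23758891, - strand), with 11 finger matches, was at 19.4, 17.0 and 15.2 CPM in mutant against 2.39, 4.65 and 3.76 CPM in WT (2.22 ± 0.24, padj = 0.000323). ZNF85 (chr19:20923222-20950697, + strand) was at 23.1, 20.5 and 17.9 CPM in mutant against 3.47, 6.97 and 6.53 CPM in WT (1.82 ± 0.24, padj = 0.000855). In all 3 genes the mutant and WT values were far apart, with the lowest mutant value over 2 times the highest WT value. ZNF254 (chr19:24033405-24129968, + strand), the last gene before the centromere, was at 63.6, 46.9 and 39.2 CPM in mutant against 14.0, 20.1 and 14.7 CPM in WT (1.61 ± 0.21, padj = 0.000736). ZNF737 (chr19:20535825-20565809, - strand) was at 42.7, 48.2 and 33.7 CPM in mutant against 18.7, 17.4 and 12.5 CPM in WT (1.36 ± 0.19, padj = 0.00112). Neither had overlapping groups. ZNF486 followed with 25.3, 27.7 and 19.6 CPM in mutant against 6.82, 10.6 and 10.2 CPM in WT (1.38 ± 0.20, padj = 0.00149), and ZNF714 and ZNF626 differed by 0.79 ± 0.12 and 1.06 ± 0.20. These genes share 10.47% (ZNF681) to 25.31% (ZNF85) of their 31-base words with other genes.

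**Figure D4:**
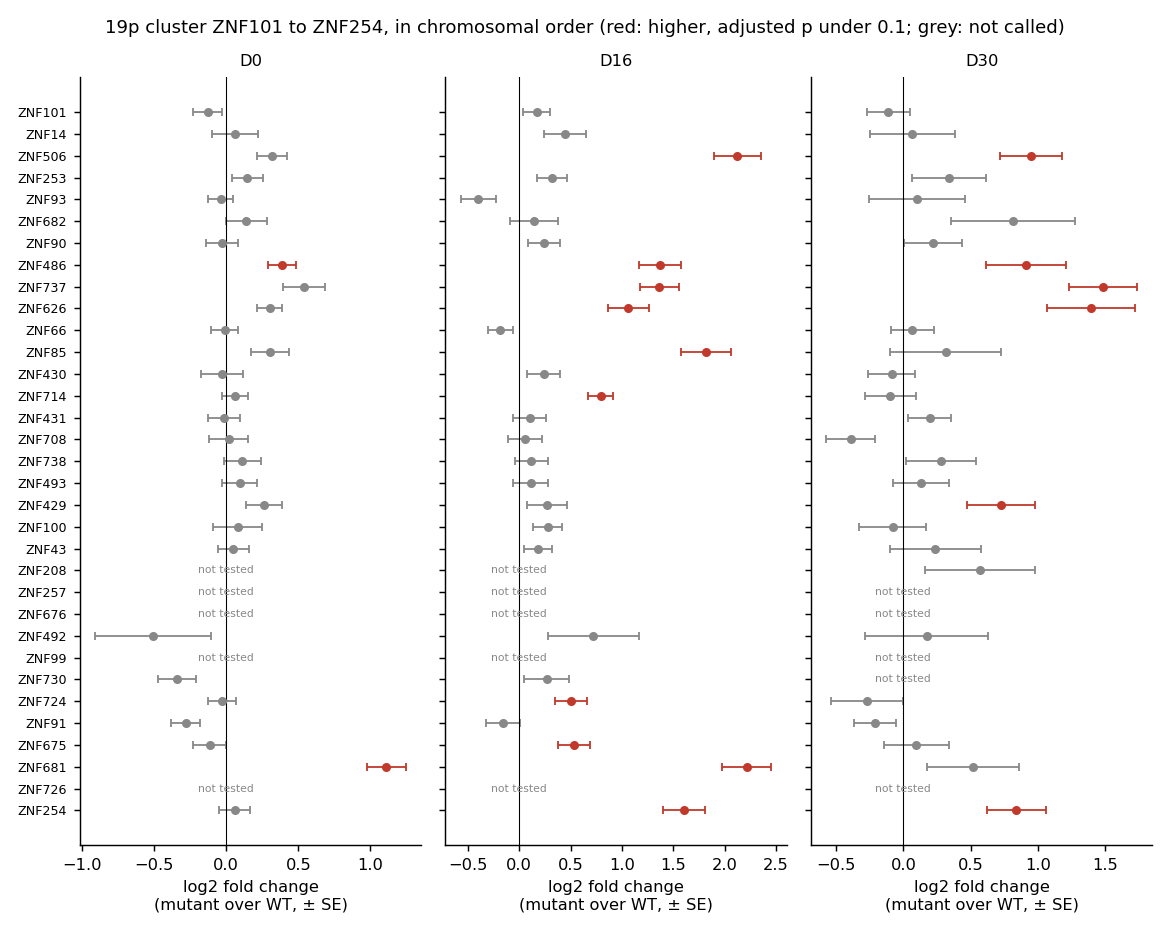
Log2 fold change ± SE of the USB1 mutant against WT (x axis) for the 33 genes of the pericentromeric 19p cluster in chromosomal order (y axis) at D0, D16 and D30. Red points were called higher and grey points were not called. At D16 ZNF681 is at 2.22 and ZNF506 at 2.12, and no gene of the cluster is called lower on any day.

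The promoters of this cluster resemble each other, as the genes do, and they are shown because these members moved together. Of the 242 members, 214 had a promoter window in the RefSeq table (GRCh38.p14), running from 250 bases before to 50 after each start. The 110 bases before the start are printed for 5 pericentromeric genes that were higher at D16, 5′ to 3′ on the gene's strand. Capitals mark CCAATCAG and CTTCCGGG, words of 8 bases picked after reading these promoters. All 5 genes printed carry both words, whereas ZNF714 and ZNF626, also higher at D16 but not printed, lack CTTCCGGG. The windows shown are ZNF85 at chr19:20923141-20923250 (+), ZNF681 at chr19:23758892-23759001 (-), ZNF254 at chr19:24087077-24087186 (+), ZNF737 at chr19:20565782-20565891 (-) and ZNF486 at chr19:20167104-20167213 (+). Starts are those of RefSeq, and that of ZNF254 lies inside the longer GENCODE span given for the gene above.
ZNF85: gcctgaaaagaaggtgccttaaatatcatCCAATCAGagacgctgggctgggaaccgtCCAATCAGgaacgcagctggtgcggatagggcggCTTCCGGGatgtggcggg
ZNF681: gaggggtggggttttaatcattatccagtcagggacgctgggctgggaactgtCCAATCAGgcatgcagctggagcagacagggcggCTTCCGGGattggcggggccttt
ZNF254: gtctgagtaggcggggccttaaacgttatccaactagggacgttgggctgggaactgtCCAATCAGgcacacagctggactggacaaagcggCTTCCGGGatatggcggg
ZNF737: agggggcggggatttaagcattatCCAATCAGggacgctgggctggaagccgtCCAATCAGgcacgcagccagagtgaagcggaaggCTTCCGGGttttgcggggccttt
ZNF486: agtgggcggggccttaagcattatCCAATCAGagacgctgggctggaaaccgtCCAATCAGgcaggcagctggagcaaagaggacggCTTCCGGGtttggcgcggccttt

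CCAATCAG holds the CCAAT box, the word bound by NF-Y, and TTCC in CTTCCGGG is the core of ETS-family sites read on the opposite strand. Counts of members here are of those with a window, which 28 of the 33 pericentromeric genes had, not the same 28 as those tested at D16. Searched on both strands of the whole window, CCAATCAG was in 28 of 28 pericentromeric genes and 22 of 25 at 11.5 to 12.6 Mb (88.0%), but in 0 of 13 at 7.1 to 9.8 Mb. By arm it was in 54 of 72 members on 19p (75.0%) and 3 of 142 on 19q (2.11%), and it was in 1298 of the 27305 genes of the table (4.75%). CTTCCGGG was in 20 of 28 pericentromeric genes (71.4%) and in 18 of 32 at 51.6 to 53.6 Mb (56.2%), but in 0 of 25 at 11.5 to 12.6 Mb, and 4.65% of all genes had it. The words do not overlap each other, and 19 of 28 pericentromeric genes had both, against 0.3% of all genes. Within the cluster, CCAATCAG was in 9 of 9 windowed genes called higher at D16 and in 19 of 19 of the rest. With the word in every windowed gene, that split could not have come out otherwise. CTTCCGGG was in 7 of 9 and 13 of 19. The rest include ZNF208, ZNF257 and ZNF726, which were not tested at D16, and ZNF506, called higher, has no window. Whether either word bears on the genotype difference was not tested. Such matches describe the letters only.

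Outside that cluster ZNF229 was again the clearest member at D16, at 14.9, 17.2 and 12.3 CPM in mutant against 2.75, 3.43 and 3.20 CPM in WT progenitors (2.23 ± 0.22, padj = 0.000205). The groups were well apart. ZNF667 was at 2.40, 4.04 and 3.38 CPM in mutant against 0.479, 1.16 and 1.14 CPM in WT (1.75 ± 0.39, padj = 0.0104). ZNF428 was at 23.3, 23.2 and 25.6 CPM in mutant against 14.5, 13.7 and 14.6 CPM in WT (0.75 ± 0.14, padj = 0.00424), although SRRM5 overlaps it on the opposite strand. ZNF850 was again higher (0.67 ± 0.16, padj = 0.016), as were ZNF57, ZNF562, ZNF561, ZNF121, ZNF440, ZNF69, ZNF433, ZNF844, ZNF114, ZNF816, ZNF813, ZNF579, ZNF444, ZNF772 and ZNF837.

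Among the 8 lower members ZNF441 and ZNF528 stood out. ZNF441 (chr19:11767000-11784078, + strand) was at 0.0774, 0.0747 and 0.199 CPM in mutant against 1.20, 2.32 and 0.994 CPM in WT progenitors (-3.58 ± 0.61, padj = 0.00281). It had 5 counts in mutant and 62 in WT libraries, a WT over mutant ratio of 11.7 with an exact 95% counting interval of 4.76 to 37.4. ZNF528 (chr19:52397849-52418412, + strand) was at 3.72, 3.36 and 2.98 CPM in mutant against 8.50, 11.8 and 6.67 CPM in WT (-1.43 ± 0.26, padj = 0.0042). The groups overlapped in neither gene, and both calls held in each fit that left out a library. ZNF264 was lower by less (-0.54 ± 0.16, padj = 0.0352), and ZNF222, ZNF230, ZNF548, ZNF841 and ZNF274 lay between -0.36 and -0.66. ZNF274, which guides SETDB1 to the 3′ ends of ZNF genes, was at 38.0, 42.1 and 43.7 CPM in mutant against 59.6, 46.7 and 52.6 CPM in WT (-0.36 ± 0.14, padj = 0.0916).

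ZNF441 is shown beside ZNF440, which lies in the same cluster and was higher in the mutant at D16 (a call lost in 3 of the 6 left-out fits), and beside ZNF528 and ZNF229 of 19q. The 110 bases before each start are at chr19:11766890-11766999 (+) for ZNF441, chr19:11814163-11814272 (+) for ZNF440, chr19:52397739-52397848 (+) for ZNF528 and chr19:44448473-44448582 (-) for the first ZNF229 start. Capitals mark the same words, and CCCGGAAG in ZNF528 is CTTCCGGG on the opposite strand.
ZNF441: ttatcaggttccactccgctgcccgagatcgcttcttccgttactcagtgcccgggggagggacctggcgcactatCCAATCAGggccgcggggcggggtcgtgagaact
ZNF440: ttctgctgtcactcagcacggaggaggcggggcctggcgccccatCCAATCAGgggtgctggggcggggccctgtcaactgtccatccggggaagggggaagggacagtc
ZNF528: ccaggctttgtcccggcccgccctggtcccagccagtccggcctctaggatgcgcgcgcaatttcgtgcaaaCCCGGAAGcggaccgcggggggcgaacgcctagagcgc
ZNF229: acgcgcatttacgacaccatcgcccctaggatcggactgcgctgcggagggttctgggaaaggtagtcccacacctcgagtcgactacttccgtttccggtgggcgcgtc
CCAATCAG is in the ZNF441 and ZNF440 stretches, as in 22 of 25 windowed genes of their cluster, and neither word is in the ZNF229 stretch. The part of these words in the genotype differences was not tested.

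In D30 blood cells 18 members were higher and 0 lower in the mutant of 219 tested, or 8.22% and 0%, against 10.8% and 9.75% of 14263 genes. At an unadjusted p under 0.05 1 member was lower, and DESeq2 called 17 higher and 1 lower. The fit over 18 libraries called 34 higher and 6 lower. On 19p 9 were higher of 66, with a median of 0.18, and on 19q 9 of 153, with a median of 0.05. The pericentromeric cluster had 6 higher of 28, with a median of 0.21 and 21 values above 0, and 5 of the 6 were also higher at D16. This cluster count was 1 without WT replicate 2, 2 without WT replicate 3 and 3 without mutant replicate 2. The count of all members was 11, 10 and 8 without WT replicate 1, 2 and 3, and 10 with transcript lengths as offsets, 8 higher and 2 lower.

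ZNF507 (chr19:32345594-32387667, + strand), which stands alone on 19q, has no KRAB-like pattern and shares none of its 31-base words, led the D30 members. It was at 48.1, 41.0 and 54.8 CPM in mutant against 19.4, 20.5 and 22.0 CPM in WT cells (1.21 ± 0.16, padj = 0.00424). ZNF175 was at 77.8, 61.4 and 65.7 CPM in mutant against 35.9, 31.7 and 32.3 CPM in WT (1.04 ± 0.15, padj = 0.00527). In both genes every mutant value exceeded every WT value. ZNF737 was at 15.9, 16.8 and 18.4 CPM in mutant against 5.78, 4.59 and 8.03 CPM in WT (1.48 ± 0.25, padj = 0.00878). ZNF229 was at 6.02, 3.74 and 6.49 CPM in mutant against 0.481, 0.948 and 0.102 CPM in WT, from 134 and 24 counts (ratio 7.76, exact 95% counting interval 5.0 to 12.5, padj = 0.0105). It was not called with transcript lengths as offsets (padj = 0.123).

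ZNF581, ZNF805 and ZNF331 were the other members called in each of the 6 left-out fits. ZNF805 was at 67.4, 52.1 and 55.6 CPM in mutant against 37.1, 35.4 and 33.9 CPM in WT cells (0.72 ± 0.15, padj = 0.019), and ZNF331, an imprinted gene, was at 29.4, 27.5 and 19 CPM in mutant against 12.5, 12.9 and 14.1 CPM in WT (0.95 ± 0.20, padj = 0.0193). ZNF581 was at 23.0, 17.7 and 34.6 CPM in mutant against 11, 10.6 and 9.66 CPM in WT (1.25 ± 0.25, padj = 0.0169), with reads that may belong to ZNF580. Each kept its groups apart. ZNF626, ZNF506, ZNF254 and ZNF559 were higher by 1.39, 0.95, 0.84 and 1.00, but all 4 were lost without WT replicate 2 (ZNF626, padj = 0.120) and with transcript lengths. ZNF681, so different at D16, was at 13.2, 8.84 and 4.94 CPM in mutant against 5.42, 7.28 and 6.51 CPM in WT at D30, with overlapping groups (0.52 ± 0.34, padj = 0.357).

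**Figure D5:**
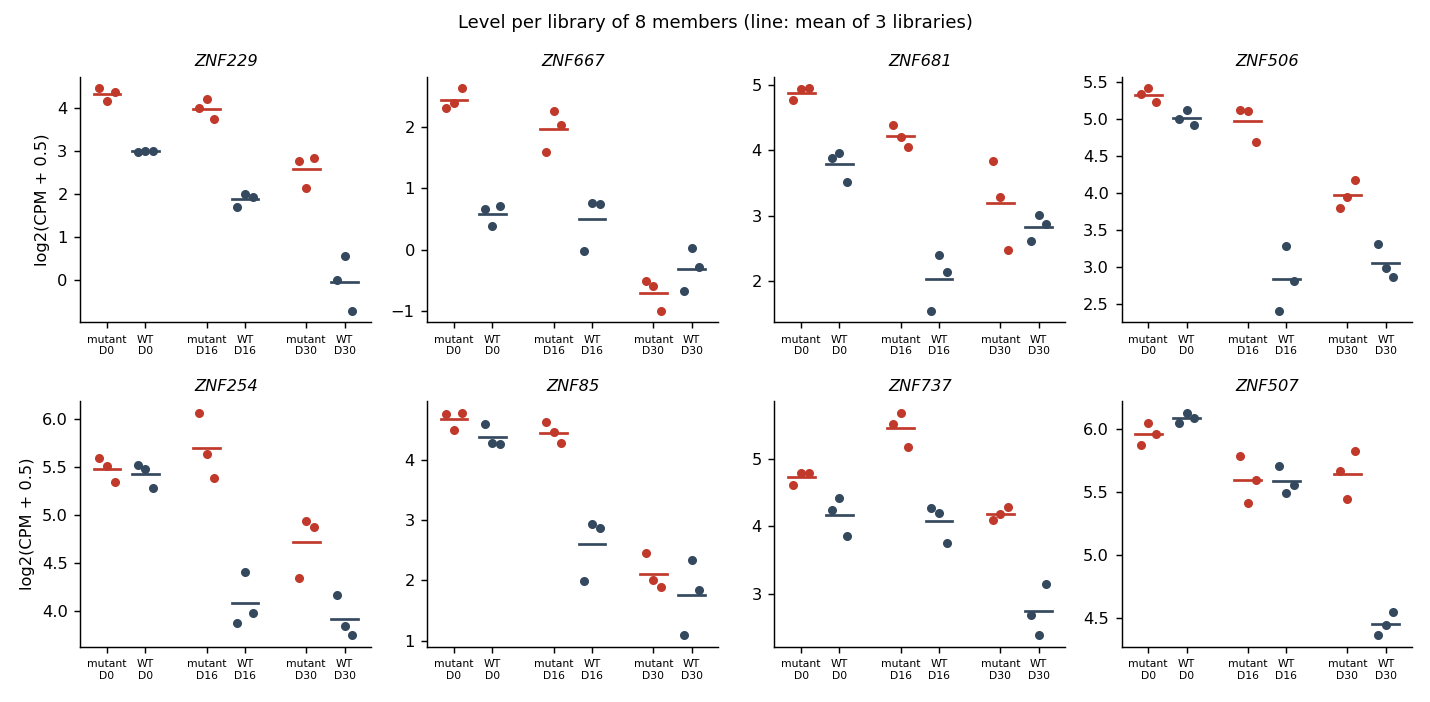
Expression of ZNF229, ZNF667, ZNF681, ZNF506, ZNF254, ZNF85, ZNF737 and ZNF507 in each of the 18 libraries as log2(CPM + 0.5) (y axis) by day (x axis), with the USB1 mutant left of WT and group means as lines. The genotypes lie furthest apart at D16 for ZNF506, ZNF254 and ZNF85 and at D30 for ZNF507, and ZNF229 is higher in the mutant on all days.

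ZNF229 and ZNF486 were called higher on all 3 days. ZNF57, ZNF562, ZNF681, ZNF850 and ZNF667 were higher at D0 and D16, ZNF440, ZNF506, ZNF737, ZNF626, ZNF254 and ZNF428 at D16 and D30, and ZNF581 at D0 and D30. Several of these recurrences rest on calls near the threshold. The D0 and D16 calls of ZNF57, the D0 call of ZNF486 and the D30 calls of ZNF440 and ZNF428 were lost in each of the 6 fits that left out a library. The D0 call of ZNF581 and the D30 call of ZNF486 were lost in 5, and the D16 call of ZNF440 in 3. No member was called lower on more than 1 day. ZNF441, called lower at D16, had few reads on the other days, which limits a call there. At D0 it had 1, 2 and 0 counts in mutant and 6, 8 and 4 in WT libraries. At D30 it had 0, 1 and 0 counts in mutant and 7, 15 and 6 in WT libraries.

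Whether a genotype difference itself changed with the day was tested as an interaction in the fit over 18 libraries. CPM values beside it, like those for changes between days, were scaled over all 18 libraries and differ slightly from those of a single day. Between D0 and D16, 10 members had a larger mutant-over-WT difference at D16 and 1 a smaller one of 234 tested, or 4.27% and 0.427%, against 3.86% and 3.75% of all genes. Of the 10, 8 were in the pericentromeric cluster (ZNF506, ZNF486, ZNF737, ZNF626, ZNF85, ZNF714, ZNF681 and ZNF254), where the median was 0.34 and 27 of 29 values were above 0. The other 2 were ZNF114 and ZNF320 of 19q, and ZNF599 had the smaller difference. Without the libraries of replicate 1 the members came to 3, and without those of replicate 2 to 2. ZNF506 and ZNF254 held in each of the 3 left-out fits.

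ZNF506 was at 40.0, 42.3 and 37.1 CPM in mutant and 31.6, 34.5 and 29.8 CPM in WT hESCs. At D16 it was at 34.4, 34.1 and 25.4 CPM in mutant and 4.81, 9.23 and 6.55 CPM in WT, and at D30 at 13.4, 14.9 and 17.6 CPM in mutant and 9.49, 7.45 and 6.80 CPM in WT. The WT level was thus low from D16 on, while the mutant level was low only at D30. ZNF254 was at 47.8, 45.2 and 40.2 CPM in mutant and 45.5, 44 and 38.3 CPM in WT hESCs, and at 66.7, 49.2 and 41.3 CPM in mutant and 14.1, 20.6 and 15.2 CPM in WT progenitors. ZNF85 went the way of ZNF506, at 24.2, 21.5 and 18.8 CPM in mutant and 3.49, 7.16 and 6.78 CPM in WT progenitors but at 4.97, 3.5 and 3.20 CPM in mutant and 1.62, 4.55 and 3.08 CPM in WT cells at D30, where the groups overlapped.

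Between D16 and D30, 16 members had a larger difference at D30 and 13 a smaller one, or 6.84% and 5.56%, against 10.3% and 10.2% of all genes. On 19p 2 were larger and 8 smaller, 6 of the 8 in the pericentromeric cluster, and on 19q 14 were larger and 5 smaller. This comparison shares the D16 libraries with the one before. Without replicate 1 or replicate 2 the 29 members came to 10 each. ZNF507 was at 58.1, 65.5 and 61.6 CPM in mutant and 65.4, 69.3 and 67.4 CPM in WT hESCs, and at 54.4, 42.1 and 47.7 CPM in mutant and 51.7, 44.4 and 46.5 CPM in WT progenitors. At D30 it was at 50.2, 42.9 and 56.2 CPM in mutant but at 20.1, 21.3 and 22.9 CPM in WT. The WT D30 libraries were the low ones. The comparison of D30 with D0 shares libraries with both others. Between D0 and D30, 10 members had a larger difference and 3 a smaller one, or 4.27% and 1.28%, against 6.42% and 4.48% of all genes. Without the libraries of replicate 1, 2 or 3 the 13 members came to 7, 2 and 5. Of the 7 named in the closing section, ZNF507 alone held in each left-out fit.

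A list of 28 KRAB corepressor and heterochromatin genes had 0 higher and 1 lower in mutant hESCs (CHD3, -0.53). In progenitors 6 were higher and 2 lower of 27, or 22.2% and 7.41%, against 13.1% and 15.3% of all genes, and at D30 4 and 1 of 27, or 14.8% and 3.7%, against 10.8% and 9.75%. TRIM28 was at 437, 491 and 543 CPM in mutant against 309, 249 and 334 CPM in WT progenitors (0.72 ± 0.15, padj = 0.00789). SETDB1 went the other way, at 60.2, 58.3 and 60.4 CPM in mutant against 94.8, 102 and 95.4 CPM in WT progenitors (-0.71 ± 0.11, padj = 0.00201). It was lower at D30 as well, at 65.2, 66.6 and 56.9 CPM in mutant against 91.7, 85.3 and 93.8 CPM in WT (-0.52 ± 0.13, padj = 0.0367). In neither gene did the groups overlap. DAXX, an H3.3 chaperone, and MORC2, which acts with the HUSH silencing complex, were higher at D30 by 1.45 and 1.17.

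Other cell markers also differed between the genotypes. The counts of called markers below stand against 13.1% higher and 15.3% lower of all genes tested at D16, and 10.8% and 9.75% at D30. Lists of so few genes give only rough shares. The summed level of 14 pluripotency markers was 128 to 148 TPM in mutant and 80.7 to 114 TPM in WT progenitors, against 4654 to 5608 and 4966 to 5347 TPM in hESCs. Of the 10 of them tested at D16, 3 were higher and 0 lower in the mutant. POU5F1 was at 3.20 to 4.71 TPM in mutant and 2.82 to 4.24 TPM in WT progenitors, LIN28A at 10.8 to 21.0 and 4.31 to 6.19 TPM, DNMT3B at 32.7 to 47.3 and 13.9 to 25.8 TPM, and PRDM14 at 0 in all. The 13 neutrophil markers summed to 3875 to 6035 TPM in mutant and 8614 to 13546 TPM in WT progenitors, with 1 higher and 11 lower, and 14 erythroid markers to 3242 to 5477 and 1554 to 2615 TPM, with 5 higher and 1 lower of 13. Of the 12 eosinophil, mast cell and basophil markers 1 was higher and 8 were lower, and of 9 megakaryocyte markers 7 and 1. Of 11 monocyte and macrophage markers 6 were higher and 1 lower at D16, and of 10 endothelial markers 6 and 1, but their summed levels overlapped, at 1004 to 1654 TPM in mutant and 684 to 1487 TPM in WT and at 386 to 463 TPM in mutant and 409 to 427 TPM in WT. Of 10 leukocyte and progenitor markers 1 was higher and 6 were lower, and of 7 stromal markers 1 and 1. At D30 the erythroid markers had 12 higher and 0 lower of 14, the neutrophil markers 1 and 8 of 11, and the monocyte and macrophage markers 0 and 7 of 11. The part of these cell types in the differences of the zinc-finger genes was not tested.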

How the data were processed

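Total RNA of H1 hESCs, D16 progenitors and D30 blood cells (USB1 mutant and WT, 3 libraries per genotype and day) was sequenced by the authors after ribosomal RNA depletion as strand-specific paired-end libraries. The authors trimmed reads with Trimmomatic 0.36 and quantified them with Salmon 0.13.1 against the Ensembl release 99 cDNA of GRCh38, so reads were assigned to transcripts by estimation and near-identical relatives share them. They deposited the expected counts, TPM values and effective lengths (a length signal, in bases) per gene for 35168 genes. All 18 columns matched a listed sample.

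Expected counts were rounded. The main test was edgeR 4.0.16 (R 4.3.3, limma 3.58.1): filterByExpr, TMM and the quasi-likelihood F test, per day on 6 libraries for genotype and over 18 libraries for days and interactions, with Benjamini-Hochberg adjustment over all genes tested. DESeq2 1.42.0, other scalings and filters, lengths as offsets, a replicate block, a stricter padj of 0.05 and each library left out were the alternatives. Summed levels were not tested. Library totals of 4125102 to 19368903 counts limit low genes most at D30. Scripts were tested on simulated data. Gene positions and overlaps came from GENCODE 44, which held 35051 of the IDs (the other 117 carried 0.238% of counts), and promoters from RefSeq GRCh38.p14. The coding sequence of 1 annotated transcript per member was translated and searched for C2H2 finger and KRAB-like patterns.

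Same-numbered mutant and WT libraries deviated together at D0 (correlations 0.25, 0.145 and 0.19) and D16 (0.119, 0.2 and 0.323). The highest correlation of differently numbered libraries was 0.0232 at D0 and 0.0496 at D16. The labels do not say what a number marks, and with 3 libraries per group these correlations cannot settle whether the numbers mark pairs. The main test therefore used genotype only, with the replicate block as an alternative.

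The members and all gene lists were chosen with earlier results of these data known. The text names, per genotype comparison, up to 12 called members per direction by padj and those called one way on 2 or more days. It names, between days, the 6 highest and 6 lowest called changes with 5 CPM in either group, and, per interaction, up to 4 per direction. It also names the 5 most abundant members per day, up to 4 list genes per direction, ZNF91 and ZNF274. Other names listed with their calls were chosen after their values were seen.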

Additional observations from a re-analysis of the deposited data

Results flagged for a closer look

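The USB1 mutant against WT difference changed between days for 11 members from D0 to D16, 29 from D16 to D30 and 13 from D0 to D30 by the interaction test of edgeR over the 18 libraries (padj under 0.1, 3 libraries per group). Up to 4 per direction, by padj, are given here as the later day's log2 fold change minus the earlier day's.

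From D0 to D16 it became larger for ZNF506 by 1.845 (padj = 0.00136), ZNF254 by 1.588 (padj = 0.00383), ZNF85 by 1.555 (padj = 0.0255) and ZNF486 by 1.025 (padj = 0.027). All 4 lie in the pericentromeric 19p cluster. ZNF599 on 19q had the opposite sign, -1.38 (padj = 0.0552). ZNF506 and ZNF254 were also called in each of the 3 fits that left out 1 replicate number.

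From D16 to D30 the difference became larger for ZNF507 by 1.188 (padj = 0.000405), ZNF805 by 0.7797 (padj = 0.00549), ZNF581 by 1.104 (padj = 0.0134) and ZNF559 by 1.048 (padj = 0.0177). It became smaller for ZNF714 at -0.9254 (padj = 0.00465), ZNF681 at -1.714 (padj = 0.00666), ZNF506 at -1.218 (padj = 0.00871) and ZNF709 at -2.423 (padj = 0.0129). ZNF507, ZNF681 and ZNF709 were called in all 3 left-out fits, but ZNF709 was not with lengths as offsets (padj = 0.301), and it shares 92.3% of its 31-base words with other genes.

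From D0 to D30 the difference became larger for ZNF507 by 1.332 (padj = 0.000315), ZNF805 by 0.7267 (padj = 0.0137), ZNF626 by 1.077 (padj = 0.0233) and ZNF792 by 1.058 (padj = 0.0246). It became smaller for ZNF667 at -3.472 (padj = 0.0112), ZNF599 at -1.772 (padj = 0.0202) and ZNF835 at -4.517 (padj = 0.0246), and ZNF667 was at 0.194, 0.159 and 0 CPM in mutant and 0.12, 0.499 and 0.305 CPM in WT cells at D30. The cause of these differences was not tested.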

How the results depend on the processing

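The count of members called in mutant against WT was 12 at D0, 37 at D16 and 18 at D30. With each library left out it was 6 to 10, 21 to 45 and 8 to 17. With lengths as offsets it was 6 at D0 and 10 at D30, at padj under 0.05 it was 23 at D16 and 11 at D30, and in the fit over 18 libraries it was 40 at D30, with all 18 shared. The replicate block, for a possible pairing of same-numbered libraries, gave 25 at D0 and 45 at D16, where all 37 were shared. It gave 14 at D30, where same-numbered libraries did not all deviate together (correlations 0.147, -0.0427 and 0.257), and changed no other count by over 1.5 times. Interaction counts were 11 (D16 against D0), 29 (D30 against D16) and 13 (D30 against D0). With a replicate number left out they were 2 to 8, 10 to 20 and 2 to 7, and with lengths as offsets 6, 18 and 6. At padj under 0.05 the first was 6 and the second 17. The 19p median at D16, 0.19, was 0.15 to 0.32 with a library left out. The log2 ratio of the summed level, mutant over WT, was -0.07 (19p, D0), -0.13 (19p, D30) and -0.11 (19q, D30) in TPM, but 0.0597, 0.14 and 0.15 in TMM CPM. Of 1495 alternative values for the 145 results on named members, 1317 kept their status, called or not called. Some of the 145 results were not calls in the main test. Of the alternative values, 174 lost a call, 4 gained one and 0 changed sign with a call. Depth limits members under 1 CPM in a group to few reads there, such as ZNF441 in mutant progenitors and ZNF835 in WT hESCs.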
